A study of Mus musculus with 5 samples.

Results

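The genes described here are the mouse heat shock transcription factor Hsf1 and 9 cytosolic and mitochondrial chaperone genes, namely Hspa8, Hsph1, Dnaja1, Dnajb1, Hsp90aa1, Hsp90ab1, Hspb1, Hspd1 and Hspe1. They are defined by name, through the reference gene name that the files give to each transcript. The rule uses no measured value, but the set was put together with earlier results of these data known. They make up 10 of 55377 genes and 81 of 157895 transcripts in the files. The study compared GL261 cells, a mouse glioma line grown in culture, after 24 h with 1 uM sodium propionate, the salt of a short-chain fatty acid, against 24 h with 1 uM sodium chloride. These doses are as the labels give them, and the unit could not be checked here. Short-chain fatty acids are commonly given to cultured cells at millimolar concentrations. Total RNA was sequenced. The propionate group has 2 libraries, numbered 2 and 3 by their labels, and the chloride group has 3, numbered 1 to 3. Propionate replicate 1 was not analysed here. All libraries came from the same cell line, and the labels do not say whether they came from separate cultures, so p-values measure only the spread between these libraries, which may be technical.

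Heat shock factor 1 is held inactive in unstressed cells, in part by chaperones, and when unfolded proteins accumulate it assembles on DNA and raises transcription of chaperone genes. It binds heat shock elements, which are inverted repeats of the unit GAA. HSP70 proteins bind exposed stretches of unfolded proteins in a cycle driven by J-domain partners and HSP110, HSP90 proteins finish the folding of kinases and receptors, small heat shock proteins hold unfolded chains, and the chaperonin formed by HSP60 and HSP10 folds proteins imported into mitochondria. Tumour cells often depend on these proteins, and several are abundant in growing cells without any heat stress.

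The promoters of these genes are where HSF1 is known to act, so the windows that hold a heat shock element are shown before the values. RefSeq windows (GRCm38.p6, 250 bases before to 50 after the annotated start, 300 bases in all) were held for 6 of the 10 genes: Hsph1, Dnaja1, Dnajb1, Hspb1, Hspd1 and Hspe1. Where a gene had several windows, the one whose start lies nearest to the start of its most abundant reference transcript was used. Each sequence runs 5′ to 3′ on the gene's own strand, and capitals mark matches to the 2-unit elements GAANNTTC or TTCNNGAA, each of which reads the same on both strands. The windows shown are those of Hspe1 at chr1:55087898-55088197 (plus strand), Hsph1 at chr5:149636287-149636586 (minus strand), Dnaja1 at chr4:40722218-40722517 (plus strand) and Hspb1 at chr5:135887669-135887968 (plus strand).
Hspe1: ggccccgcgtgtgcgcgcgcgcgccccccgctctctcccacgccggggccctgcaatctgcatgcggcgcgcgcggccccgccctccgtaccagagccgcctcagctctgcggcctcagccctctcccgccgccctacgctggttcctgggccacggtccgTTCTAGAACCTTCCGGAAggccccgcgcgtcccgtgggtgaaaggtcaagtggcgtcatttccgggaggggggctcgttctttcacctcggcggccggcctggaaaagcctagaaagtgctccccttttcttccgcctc
Hsph1: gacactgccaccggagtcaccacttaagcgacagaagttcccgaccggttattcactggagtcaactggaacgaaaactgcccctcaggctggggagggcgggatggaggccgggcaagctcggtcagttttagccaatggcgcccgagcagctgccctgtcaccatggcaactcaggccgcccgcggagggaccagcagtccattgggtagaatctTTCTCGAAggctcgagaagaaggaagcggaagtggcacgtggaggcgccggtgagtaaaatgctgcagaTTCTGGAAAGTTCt
Dnaja1: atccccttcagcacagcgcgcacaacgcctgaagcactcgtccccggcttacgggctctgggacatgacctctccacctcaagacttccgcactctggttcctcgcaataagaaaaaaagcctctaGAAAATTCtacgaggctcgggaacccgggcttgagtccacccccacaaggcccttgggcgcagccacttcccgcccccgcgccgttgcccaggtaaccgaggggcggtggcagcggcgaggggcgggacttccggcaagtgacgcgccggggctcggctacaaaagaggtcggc
Hspb1: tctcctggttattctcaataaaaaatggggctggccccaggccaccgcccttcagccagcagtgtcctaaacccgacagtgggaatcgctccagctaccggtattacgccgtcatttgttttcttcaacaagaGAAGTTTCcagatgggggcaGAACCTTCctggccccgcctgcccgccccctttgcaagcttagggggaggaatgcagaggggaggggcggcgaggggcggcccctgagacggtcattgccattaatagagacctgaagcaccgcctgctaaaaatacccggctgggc

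The Hspe1 window held 4 alternating units in a row (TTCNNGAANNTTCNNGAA), from 89 to 72 bases before the start, a match found in 0.0152% of 32851 RefSeq mouse promoter windows of the same length. The same bases lie in the second window of Hspd1, on the other strand, since the 2 genes are transcribed away from each other. The leading Hspe1 transcript (plus strand) starts at base 55088132 of chromosome 1 and the leading Hspd1 transcript (minus strand) at base 55088144, so that their first bases overlap. The Hsph1 window held the 3-unit element GAANNTTCNNGAA, read on the other strand as TTCNNGAANNTTC, from 37 to 49 bases after its annotated start, and a 2-unit match before it. The 3-unit element, which contains both 2-unit elements, was found in 0.603% of all windows. The Dnaja1 window held 1 GAANNTTC match and the Hspb1 window 2 of them, and 7.86% of all windows hold this element and 8.52% hold TTCNNGAA. The Dnajb1 window and the first Hspd1 window held no match to these letters. The annotated start of that Hspd1 window lies at -99 bases from the start of the leading Hspd1 transcript, so the window ends before the latter. The same holds, also at -99 bases, for the Hspb1 window and the leading Hspb1 transcript. These matches describe letters in the windows only, since no binding was measured.

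**Figure D1:**
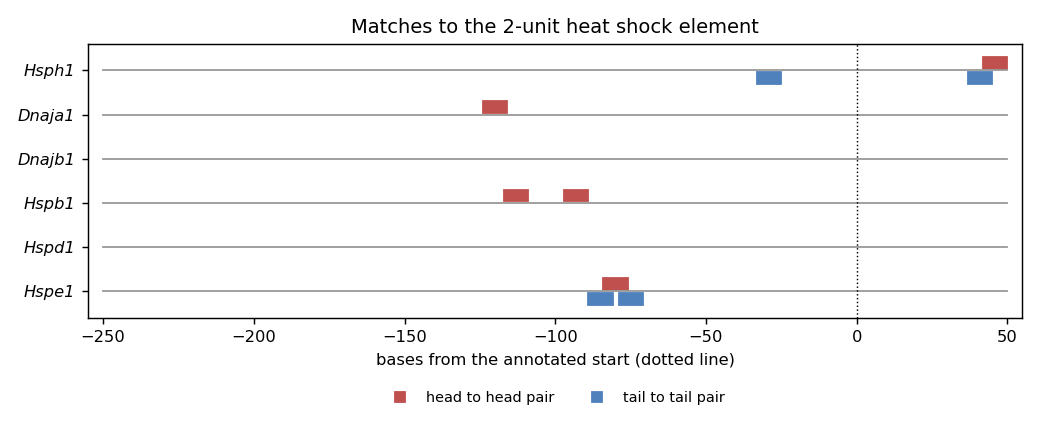
Positions of matches to the 2-unit heat shock elements in the RefSeq promoter windows of 6 chaperone genes, in bases from the annotated start; red boxes are GAANNTTC and blue boxes TTCNNGAA. The 3 overlapping boxes in Hspe1 form the 4-unit run, and those after the start of Hsph1 form the 3-unit element.

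The libraries held 7.19 to 7.63 Gb of aligned bases, a depth derived from the coverage and FPKM values in the files. Expression is given as TPM, an abundance per base of transcript scaled to the same total in each library and summed over the transcripts of a gene. In all libraries, 7 of 8 glioma and neural progenitor genes averaged at least 1 TPM and the list summed to 6052 to 7677 TPM, led by Vim (vimentin). None of 8 macrophage, 6 T and B cell, 4 endothelial and 5 neuronal markers averaged 1 TPM. The macrophage and microglia list summed to 1.04 and 1.49 TPM in the propionate libraries and to 0.492, 0.452 and 0.468 TPM in the chloride libraries, and Itgam was listed at 0 in all of them. Tmem119 held most of the higher sums, with 0.617 and 1.35 TPM in propionate cells and 0.137, 0.0921 and 0.113 TPM in chloride cells. The other 7 genes of that list summed to 0.422 and 0.146 TPM in propionate cells and to 0.356, 0.360 and 0.355 TPM in chloride cells. The part of these low levels in the results was not tested. Small RNAs took 46.3% and 40.8% of TPM in the propionate libraries and 42.5%, 44.4% and 45.1% in the chloride libraries, which matters here because TPM of all genes shares a fixed total.

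None of the 9 genes abundant enough to test passed the threshold for a difference between propionate and chloride, and Hspb1 was too low to test. Each of the 9 had a mean change below 0 on the log2 scale, between -0.29 (Hspd1) and -0.05 (Hsp90ab1), with a median of -0.12. Over all 13877 tested genes the median change was -0.03 and 55.5% had a change below 0. By limma across all genes, at a Benjamini-Hochberg adjusted p under 0.05, 182 genes were called higher in propionate cells, which is 1.31% of those tested, and 70 were called lower, which is 0.504%. Of the 9 chaperone genes 0 were called higher and 0 lower, and 1 (Hsf1) had an unadjusted p under 0.05, beside 16.8% of all tested genes. In 2 of the 9 (Hsf1 and Hsph1) both propionate libraries lay below all 3 chloride libraries, which was the case for 19.7% of all tested genes. In RNA from whole cultures, fewer cells with a transcript and less of it per cell cannot be told apart.

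**Figure D2:**
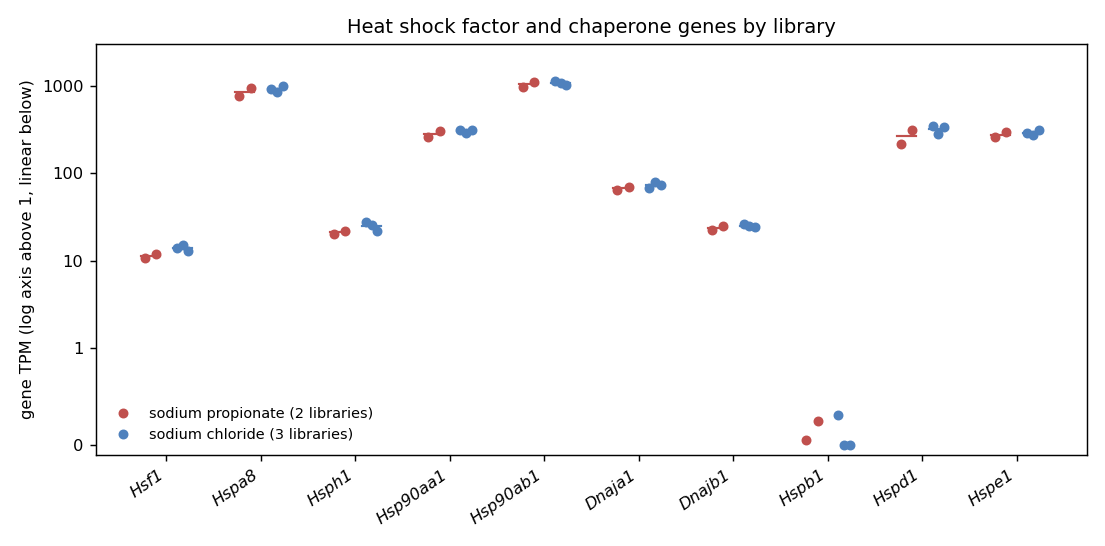
TPM of the 10 genes in each library, with sodium propionate (red, 2 libraries) left of sodium chloride (blue, 3 libraries); points are libraries and lines are group means, on an axis that is logarithmic above 1 TPM and linear below. Levels run from 974 to 1143 TPM for Hsp90ab1 down to 0 to 0.313 TPM for Hspb1, which has no mean line because it is listed at 0 in 2 libraries.

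The levels spanned several orders of magnitude. Hsp90ab1, the constitutive cytosolic HSP90, was the most abundant, at 974 to 1143 TPM over the 5 libraries, and ranked 51 of 21982 protein-coding genes by mean TPM. Hspa8, the constitutive HSP70, followed at 756 to 993 TPM and ranked 76. Hspd1 (217 to 343 TPM), Hsp90aa1 (262 to 315 TPM) and Hspe1 (258 to 313 TPM) had overlapping ranges, so their order is not set by these libraries. Dnaja1 stood apart at 64.2 to 78.9 TPM, while Dnajb1 (22.2 to 26.3 TPM) and Hsph1 (20.1 to 27.7 TPM) overlapped. Hsf1 (10.8 to 14.9 TPM, rank 5958) and Hspb1 came last. The ranges of Hsp90ab1 and Hspa8 overlapped as well.

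Hsf1, the transcription factor itself (ENSMUSG00000022556; chr15:76477422-76501913, plus strand, mm10), had 10.8 and 11.7 TPM in the propionate libraries, against 14.0, 14.9 and 12.9 TPM in the chloride libraries. Both propionate libraries were below every chloride library, by a small margin. The change was -0.28 ± 0.11 (log2, SE), with a 95% interval from -0.53 to -0.03, and an adjusted p of 0.248 by limma. On a scale of TPM over protein-coding genes, which removes the share taken by small RNAs, Hsf1 had 23.9 and 23.3 in propionate cells and 28.5, 31.2 and 27.5 in chloride cells, and again the groups did not overlap. All of its TPM lay in reference transcripts, with none assembled from the reads.

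Hspa8 (ENSMUSG00000015656; chr9:40800984-40810087, plus strand), which folds new proteins and uncoats clathrin vesicles, had 756 and 950 TPM in the propionate libraries, against 910, 849 and 993 TPM in the chloride libraries. Propionate replicate 2 was the lowest of the 5 libraries and replicate 3 the second highest, so the groups overlapped. The change was -0.11 ± 0.12 (95% interval -0.38 to 0.15; adjusted p = 0.687, limma), and without propionate replicate 2 it was 0.05. Introns of Hspa8 hold the small nucleolar RNA genes Snord14c, Snord14d and Snord14e, each listed at 0.00111 TPM or less in every library. How reads were divided between host and guest genes was not tested.

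Hsph1 (ENSMUSG00000029657; chr5:149614287-149636376, minus strand), the HSP110 that exchanges nucleotide on HSP70, had 20.1 and 21.8 TPM in propionate cells, against 27.7, 25.3 and 21.9 TPM in chloride cells. The groups did not overlap, but the higher propionate library and the lowest chloride library were almost equal. The change was -0.24 ± 0.12 (95% interval -0.51 to 0.04; adjusted p = 0.367, limma).

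The J-domain proteins start the ATP cycle of HSP70. Dnaja1 (ENSMUSG00000028410; chr4:40722150-40737149, plus strand) had 64.2 and 69.4 TPM in propionate cells, against 68.2, 78.9 and 73.4 TPM in chloride cells, a change of -0.13 ± 0.10 (95% interval -0.36 to 0.09; adjusted p = 0.537, limma). Dnajb1 (ENSMUSG00000005483; chr8:83608193-83612653, plus strand), the stress-responsive HSP40, had 22.2 and 25.0 TPM in propionate cells, against 26.3, 24.9 and 23.9 TPM in chloride cells. Its change was -0.08 ± 0.10 (95% interval -0.31 to 0.15; adjusted p = 0.751, limma), and without propionate replicate 2 it was 0.00. In both genes the groups overlapped. Exons of Dnaja1 share 608 bases with Smu1 on the opposite strand, and the StringTie command in the file headers set no strand option. Smu1 had 68.4 and 78.4 TPM in propionate cells and 80.4, 77.5 and 74.8 TPM in chloride cells.

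The HSP90 genes overlapped between the groups. Hsp90aa1 (ENSMUSG00000021270; chr12:110690605-110702728, minus strand), the inducible form, had 262 and 302 TPM in propionate cells, against 315, 290 and 310 TPM in chloride cells. Hsp90ab1 (ENSMUSG00000023944; chr17:45567775-45573271, minus strand) had 974 and 1114 TPM in propionate cells, against 1143, 1079 and 1009 TPM in chloride cells. In each gene propionate replicate 2 was the lowest library and replicate 3 lay among the chloride libraries. Their changes were -0.12 ± 0.09 (95% interval -0.33 to 0.10; adjusted p = 0.583, limma) for Hsp90aa1 and -0.05 ± 0.09 (95% interval -0.26 to 0.17; adjusted p = 0.857, limma) for Hsp90ab1, and without propionate replicate 2 they were -0.01 for Hsp90aa1 and 0.05 for Hsp90ab1. Without propionate replicate 3 the change of Hsp90aa1 was -0.22. Hsp90aa1 made up 21.2% and 21.4% of the pair's TPM in propionate cells and 21.6%, 21.2% and 23.5% in chloride cells. The difference of means was -0.84 percentage points, with p = 0.6 in a two-sided exact permutation test, in which 2 against 3 libraries cannot give a p under 0.1.

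Hspb1, the small heat shock protein HSP27 or HSP25 (ENSMUSG00000004951; chr5:135887919-135889563, plus strand), was near 0 in these cells. It had 0.0563 and 0.250 TPM in the propionate libraries and 0.313 TPM in chloride replicate 1, and it was listed at 0 in chloride replicates 2 and 3. The mean coverage behind its only transcript above 0 was 0.281 and 1.18 reads per base in propionate cells and 1.54 in chloride replicate 1. It was below the minimum of 1 TPM and was not tested, and at this depth no difference was detectable. Its promoter window holds 2 of the 2-unit elements printed above. The annotated start of that window lies at -99 bases from the start of the transcript above 0, so the window ends before it.

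Hspd1 and Hspe1 encode the mitochondrial chaperonin HSP60 and its lid HSP10 and share a promoter. Hspd1 (ENSMUSG00000025980; chr1:55077835-55088243, minus strand) had 217 and 315 TPM in propionate cells, against 343, 283 and 337 TPM in chloride cells. Hspe1 (ENSMUSG00000073676; chr1:55088132-55091307, plus strand) had 258 and 294 TPM in propionate cells, against 285, 273 and 313 TPM in chloride cells. Propionate replicate 2 was the lowest library for both genes, while replicate 3 lay within the chloride range. The change of Hspd1 was -0.29 ± 0.16 (95% interval -0.65 to 0.07; adjusted p = 0.398, limma) and -0.02 without propionate replicate 2. That of Hspe1 was -0.07 ± 0.10 (95% interval -0.30 to 0.15; adjusted p = 0.766, limma) and 0.02 without propionate replicate 2. The log2 ratio of Hspd1 to Hspe1 was -0.25 and 0.10 in propionate cells and 0.27, 0.05 and 0.11 in chloride cells, and the difference of -0.22 had p = 0.3 in the two-sided exact permutation test. The 2 genes share 112 exon bases on opposite strands.

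**Figure D3:**
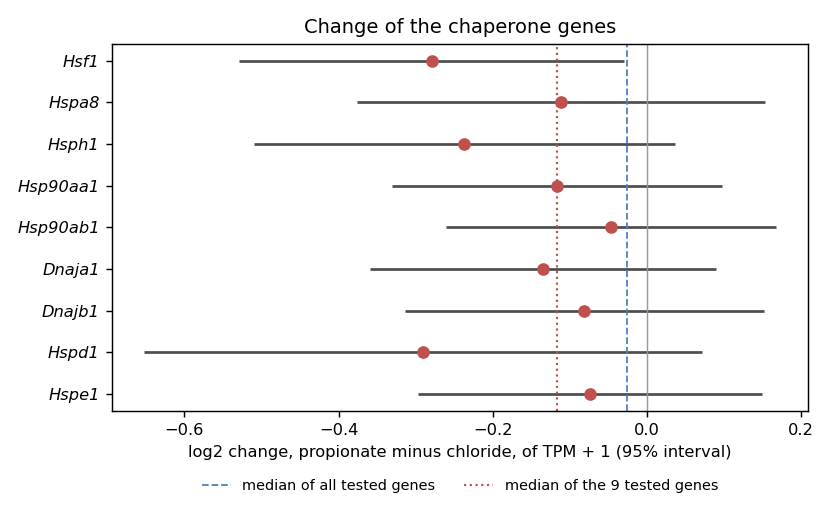
Change of the 9 tested genes, sodium propionate minus sodium chloride, as log2 of TPM + 1 with its 95% interval; dashed and dotted lines are the median over all tested genes (-0.03) and over these 9 (-0.12). All points lie below 0, and every interval except that of Hsf1 (-0.53 to -0.03) crosses it.

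The propionate libraries differed in how far the 9 genes lay from the chloride mean. As log2 differences to the mean of the chloride libraries, the 9 genes had a median of -0.22 in replicate 2 of the propionate group and -0.01 in replicate 3, against 0.05, 0.00 and 0.00 in the chloride libraries. All 9 genes were below the chloride mean in propionate replicate 2 and 5 were in propionate replicate 3, against 3, 5 and 5 in the chloride libraries. Without propionate replicate 2, 5 of the 9 changes were below 0 and their median was -0.01, against 0.03 for all genes. Propionate replicate 2 also had the highest share of small RNA (46.3%), and the median over all tested genes was -0.08 in that library.

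On the scale of TPM over protein-coding genes the 2 propionate libraries came closer. The median of the 9 genes was -0.14 and -0.08 in propionate replicates 2 and 3, against 0.01, 0.00 and 0.03 in the chloride libraries. Over all tested genes the median was -0.01 and -0.03 in propionate replicates 2 and 3. All 9 genes were below the chloride mean in each propionate library, against 4 in each chloride library. On that scale the groups did not overlap for 4 of the 9 genes (Hsf1, Hsph1, Hsp90aa1 and Dnajb1, all lower in propionate cells), beside 22.3% of all tested genes. By aligned bases of the gene per Mb assigned to genes, which ignores transcript length, 5 of the 9 were lower without overlap (Hsf1, Hsph1, Dnaja1, Dnajb1 and Hspd1), beside 21.1% of all tested genes. No gene of the 9 passed the threshold on any scale tried. Hsf1 and Hsph1 were the genes whose groups were apart on all of these scales.

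**Figure D4:**
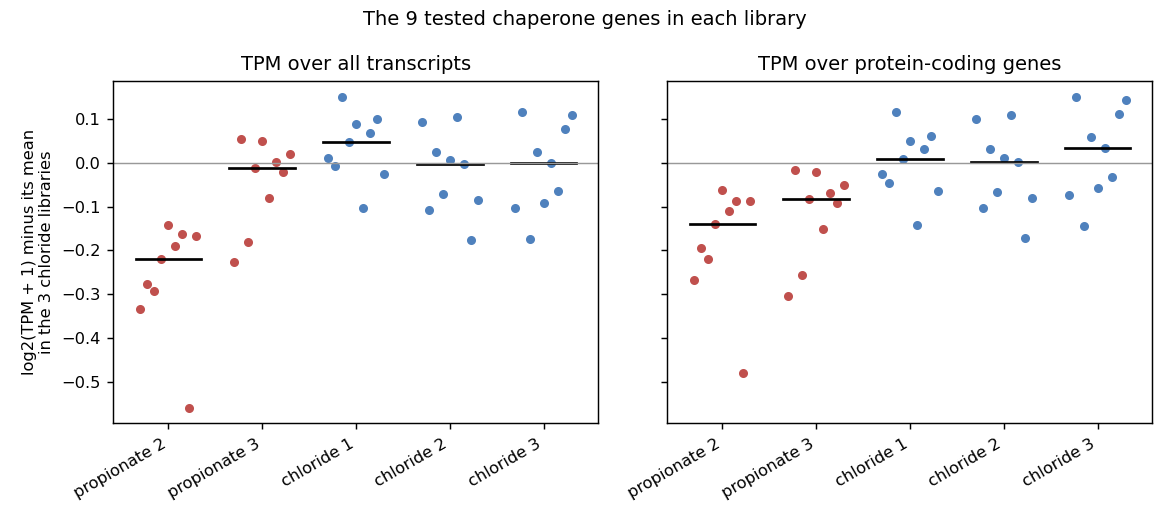
Each point is 1 of the 9 tested genes in 1 library, as log2(TPM + 1) minus its mean in the 3 chloride libraries, for TPM over all transcripts and over protein-coding genes; bars are medians. The median of propionate replicate 2 is -0.22 at left and -0.14 at right, and that of propionate replicate 3 is -0.01 at left and -0.08 at right.

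For Hspa8, Hspd1 and Dnaja1, the division of TPM between transcripts differed between libraries of the same group. The leading Hspa8 transcript, ENSMUST00000015800, had 699 and 522 TPM in the propionate libraries, against 371, 778 and 133 TPM in the chloride libraries. In propionate replicate 3 and chloride replicates 1 and 3, the rest of Hspa8 was mainly in transcripts assembled from the reads. These held 0 and 383 TPM in propionate cells and 501, 0 and 785 TPM in chloride cells. In replicate 2 of each group, the next transcript was ENSMUST00000140984, a reference transcript that retains an intron. It had 42.0 TPM in propionate replicate 2 and 56.0 TPM in chloride replicate 2. These assembled transcripts share 7 of 8 introns with the leading one and start 303 and 318 bases downstream of it. The chloride libraries alone spanned 133 to 778 TPM for the leading transcript. Summed over reference transcripts only, the change of Hspa8 turned to 0.65 (adjusted p = 0.687, limma).

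In Hspd1 the same was seen in a propionate library. Its leading transcript ENSMUST00000027123, of 2543 bases, had 4.26 and 272 TPM in propionate cells and 301, 189 and 311 TPM in chloride cells. In propionate replicate 2, 90.8% of Hspd1 TPM was in assembled transcripts, most of it in one of 4367 bases that retains an intron region of 1980 bases and had 118 TPM there. Because TPM is per base of transcript, assigning reads to a longer transcript lowers the gene's TPM. By aligned bases per Mb, Hspd1 had 581 and 617 in propionate cells, against 665, 643 and 684 in chloride cells. Both propionate libraries were then below all chloride libraries. Over reference transcripts only, the change of Hspd1 was -1.80, with 20.0 and 277 TPM in propionate cells and 305, 195 and 314 TPM in chloride cells. For Dnaja1, assembled transcripts held 0 and 0 TPM in propionate cells and 6.10, 5.58 and 23.1 TPM in chloride cells. The one that held 23.1 TPM in chloride replicate 3 starts 19276 bases upstream of the leading transcript. Over reference transcripts only, the change of Dnaja1 turned to 0.12 (adjusted p = 0.802, limma).

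**Figure D5:**
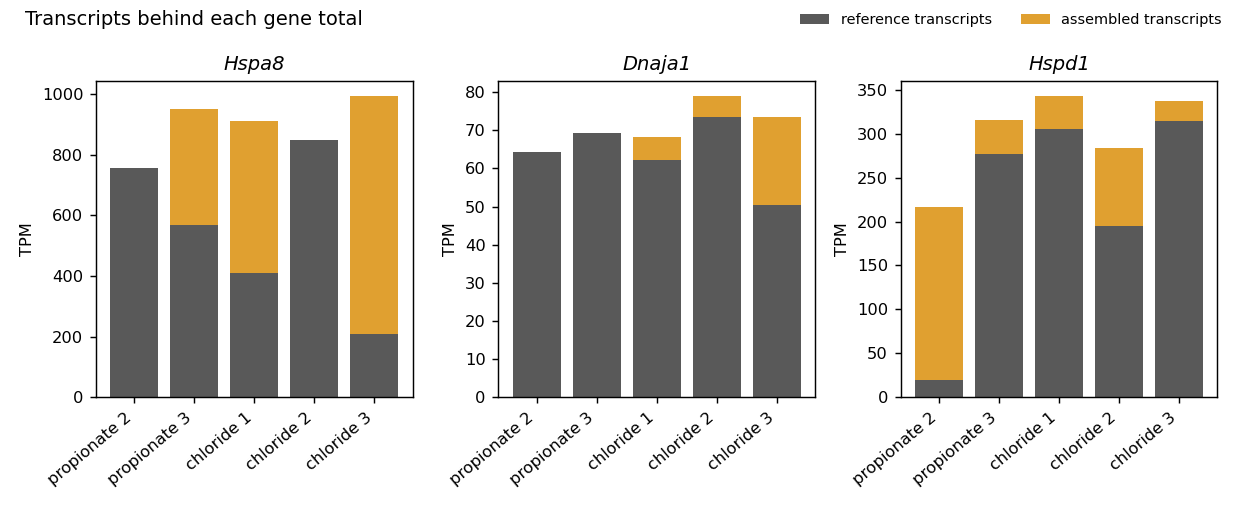
TPM of Hspa8, Dnaja1 and Hspd1 in each library, with bars divided into reference transcripts (grey) and transcripts assembled from the reads (orange). Assembled transcripts hold 0 to 785 TPM of Hspa8 among the chloride libraries and 197 of 217 TPM of Hspd1 in propionate replicate 2.

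Processed copies were sought only by a gene's symbol followed by -ps, which found copies of Hspd1, Hspe1 and Dnaja1. Copies under other names were not looked for. Hspd1-ps3 had 8.09 and 9.33 TPM in propionate cells, against 12.9, 9.62 and 12.1 TPM in chloride cells. Both propionate libraries were below all chloride libraries, and near-identical copies can exchange reads with their parent gene. Hspe1-ps2, Hspe1-ps3, Hspe1-ps5, Hspe1-ps6 and Dnaja1-ps stayed below 1 TPM in every library.

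Further genes of the chaperone network were taken from 10 lists with 89 genes, of which 80 could be tested. Of these 80, 0 were called higher and 1 lower in propionate cells, 27 had a change above 0 and 53 below, beside 55.5% of all genes below, and the median was -0.07, against -0.03 for all genes. The median of the 80 was -0.14 in propionate replicate 2 but 0.025 in propionate replicate 3, as log2 differences to the chloride mean. Of the propionate medians, only that of replicate 2 was below 0. Over all tested genes the medians were -0.083 in propionate replicate 2 and 0.032 in propionate replicate 3. Of 19 genes named from the lists, 10 had a change that moved by over 1.5 times when 1 propionate library was left out. Of all 80 tested genes of the lists, 18 had both propionate libraries below all chloride libraries, beside 19.7% of all genes. In 6 of the 80 they were above, beside 14.8% of all genes. The strongly heat-inducible HSP70 genes Hspa1a and Hspa1b were near 0. Hspa1a had 0.130 and 0.148 TPM in propionate cells and 0.0141, 0.0679 and 0.150 TPM in chloride cells. Hspa1b had 0.190 and 0.425 TPM in propionate cells and 0.00244, 0.0498 and 0.134 TPM in chloride cells. Neither could be tested, and how reads were divided between these near-identical genes was not tested.

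The gene called lower was Cdc37, the co-chaperone that loads kinases onto HSP90. It had 23.1 and 27.0 TPM in propionate cells, against 40.7, 41.1 and 38.3 TPM in chloride cells, a change of -0.66 ± 0.10 (95% interval -0.90 to -0.42; adjusted p = 0.0231, limma). The difference lay in the shorter protein-coding transcript ENSMUST00000215296 (1184 bases), with 6.41 and 9.49 TPM in propionate cells and 24.3, 26.0 and 23.6 TPM in chloride cells. The longer one, ENSMUST00000019615 (7851 bases), had 16.5 and 17.3 TPM in propionate cells and 15.8, 15.0 and 14.2 TPM in chloride cells. By aligned bases per Mb, Cdc37 had 108 and 108 in propionate cells and 111, 111 and 109 in chloride cells, still below in both propionate libraries but by little, and a fit on aligned bases gave a change of -0.03 with adjusted p = 0.786 (limma with voom). Over all alternatives the adjusted p of Cdc37 ranged between 0.00768 and 0.786. It was 0.0742 without propionate replicate 2, 0.0852 without propionate replicate 3, 0.0778 without chloride replicate 1, 0.0686 without chloride replicate 2, and 0.152 both with reference transcripts only and with no minimum TPM. The other 14 HSP90 co-chaperones did not pass.

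The heat shock factor list had 3 of 5 genes tested and none called. Hsf2, which can act together with HSF1, had 23.7 and 24.7 TPM in propionate cells, against 19.9, 21.4 and 21.6 TPM in chloride cells (log2 change 0.20, adjusted p = 0.349, limma). Both propionate libraries were above all chloride libraries, opposite to Hsf1. Hsf4, the lens factor, had 2.18 and 1.61 TPM in propionate cells and 2.14, 3.16 and 2.51 TPM in chloride cells (-0.31, adjusted p = 0.439, limma), with overlap.

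Cryab and Hspb6, both small heat shock proteins, had the smallest adjusted p among the 79 genes of these lists that missed the threshold. Cryab, alpha B-crystallin, had 72.9 and 93.4 TPM in propionate cells, against 120, 125 and 110 TPM in chloride cells (-0.52 ± 0.12, adjusted p = 0.0786, limma), and it passed with median-of-ratios scaling, on the protein-coding scale and with voom, with an adjusted p of 0.0335, 0.0295 and 0.00847. Its change was -0.33 (adjusted p = 0.507, limma) with reference transcripts only and -0.34 (adjusted p = 0.184, limma) without propionate replicate 2. Hspb6 had 1.16 and 1.47 TPM in propionate cells, against 2.58, 2.61 and 2.85 TPM in chloride cells (-0.67 ± 0.16, adjusted p = 0.0817, limma). In both genes the groups were apart. Hspb3 had a change of 0.32 (adjusted p = 0.542) and Chordc1, an HSP90-binding protein, one of -0.19 (adjusted p = 0.345), both by limma. The heat-inducible list had 8 of 10 genes tested and the other small heat shock proteins 5 of 7, with 0 called in either.

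The remaining lists had no call. Among 13 of 15 further J-domain genes tested, Dnajc9, which also binds histones, had 60.0 and 65.4 TPM in propionate cells, against 81.1, 74.8 and 81.3 TPM in chloride cells (-0.33 ± 0.09, adjusted p = 0.120, limma), and it passed on the protein-coding scale and with voom, at 0.0471 and 0.0193. Dnajc7 had a change of -0.20 (adjusted p = 0.369, limma). Among 5 of 6 other cytosolic HSP70 and HSP110 genes tested, Hspa1l had 3.38 and 5.63 TPM in propionate cells, against 2.93, 2.85 and 2.65 TPM in chloride cells (0.50, adjusted p = 0.234, limma). That value turned to -0.93 when assembled transcripts that overlap more than 1 gene were left out. Hspa12b had a change of 0.22 (adjusted p = 0.529, limma), which was 0.41 when propionate replicate 2 was left out and only 0.02 when replicate 3 was. Of 8 nucleotide exchange factors and HSP70 co-chaperones, Hspbp1 had -0.19 (adjusted p = 0.472) and Bag1 -0.13 (adjusted p = 0.620), both by limma.

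Among 9 mitochondrial chaperones and proteases, the partners of Hspd1 and Hspe1 in that compartment, Clpp had 33.5 and 32.0 TPM in propionate cells, against 41.2, 39.6 and 39.5 TPM in chloride cells (-0.28 ± 0.09, adjusted p = 0.165, limma). Hspa9, the mitochondrial HSP70, had 183 and 216 TPM in propionate cells, against 230, 228 and 224 TPM in chloride cells (-0.19, adjusted p = 0.352, limma). In both the groups did not overlap, and leaving out propionate replicate 2 gave Hspa9 a change of -0.07, while leaving out replicate 3 gave -0.31. For the cytosolic chaperonin TRiC, 6 of 8 subunits had a change below 0, beside 55.5% of all genes, and the median was -0.12, against -0.03 for all genes. By library, the TRiC median lay at -0.23 in propionate replicate 2, against -0.01 for replicate 3 of that group. Its members with the smallest p were Cct6a (-0.21, adjusted p = 0.276, and 0.0404 with voom) and Cct3 (-0.18, adjusted p = 0.379), by limma. Of 6 prefoldin subunits, Vbp1 had -0.23 (adjusted p = 0.243) and Pfdn1 0.08 (adjusted p = 0.704), by limma.

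Genes whose values over the 5 libraries ran most like the mean of the 9 genes were found by Euclidean distance between centred log2 profiles. The nearest were Brat1 (distance 0.0136), Mlst8 (0.0160) and Golt1b (0.0221), picked as the smallest distances among all other tested genes. Distances of the 9 genes to their own mean ran from 0.0726 for Hsp90aa1 to 0.331 for Hspd1. The 9 genes were not picked by distance, so these values do not compare like with like. Golt1b had 35.3 and 41.5 TPM in propionate cells, against 43.4, 41.2 and 42.0 TPM in chloride cells, with propionate replicate 2 the only low library. In Mlst8 the groups overlapped as well. Brat1 had 8.17 and 9.53 TPM in propionate cells, against 10.2, 9.75 and 9.87 TPM in chloride cells, without overlap. With 5 libraries, such likeness describes these libraries only.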

How the data were processed

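Libraries of GL261 total RNA were prepared with a stranded kit, as the labels' protocols state. Tools named in the submitters' processing notes are bcl2fastq, fastp, HISAT2 and StringTie, with the build mm10. Per the file headers, StringTie 2.1.1 estimated coverage, FPKM and TPM of each transcript of one merged annotation, with no strand option. The deposited files hold these values and no read counts, so the exact number of reads behind a value is unknown. TPM sums to 1000000 in each library, small RNAs included.

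GENCODE M21 supplied the gene of each Ensembl transcript, and 99.81% of those found had the same start. TPM was summed per gene, adding 12224 assembled transcripts that overlap a gene's exons on its strand. Genes with a mean of at least 1 TPM entered limma 3.58.1 (R 4.3.3) as log2(TPM + 1). The model held the treatment alone, variances were moderated with an intensity trend, and calls needed a two-sided p under 0.05 after Benjamini-Hochberg adjustment. Changes on this scale understate those of low genes. The TPM ratio of Hspd1 to Hspe1 and the Hsp90aa1 share were compared by exact permutation. Promoter windows were searched with Python 3.11.15. Genes named are the 10 genes, up to 3 called genes per list or else the 2 with the smallest p, the 3 nearest profiles and processed copies. Hspa1a, Hspa1b, Smu1, the Snord14 genes, Vim, Itgam and Tmem119 were named outside this rule, after their values were seen. The genes, lists and tests were chosen with earlier results of these data known. Whether the replicate numbers pair the libraries could not be decided. Same-numbered libraries deviated with correlations of -0.222 and -0.196 across genes. With 2 propionate libraries their deviations mirror each other, so these values are not independent. The alternatives varied the transcripts summed, the pseudocount, the minimum, the unit, the scaling, the test, the block and the libraries.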

Additional observations from a re-analysis of the deposited data

How the results depend on the processing

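Under the 15 alternatives, 0 of the 9 genes were called higher or lower, and the log2 change of 5 of the 9 turned its direction under at least 1 of them. For these 9 genes, 3 alternatives could not change a direction, since their values were as before with a minimum of 5 TPM, with no minimum and without assembled transcripts over more than 1 gene. The replicate block gave the same 9 changes as leaving out chloride replicate 1. With reference transcripts only, that of Hspa8 was 0.65, Dnaja1 0.12 and Hspbp1 0.57. Leaving out 1 library at a time, the median of the 9 genes ranged from -0.22 (without propionate replicate 3) to -0.012 (without propionate replicate 2). Over the same settings Hspa8 ranged from -0.28 to 0.054, Hsp90ab1 from -0.14 to 0.051, Dnajb1 from -0.16 to 0.0010, Hspe1 from -0.17 to 0.020 and Bag1 from -0.28 to 0.027. Hspa1l was -0.93 without assembled transcripts over more than 1 gene. The cause of these differences was not tested.

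Over all genes, 182 higher and 70 lower calls became 5 and 6 with reference transcripts only, 112 and 35 without assembled transcripts over more than 1 gene, 2 and 1 with no minimum, and 240 and 118 with FPKM. Scaling TPM by median of ratios gave 371 and 157, and scaling it to protein-coding genes 337 and 182. The voom fit of aligned bases gave 708 and 359. Leaving out 1 library gave 8 to 126 higher and 7 to 46 lower calls, fewest without propionate replicate 3. The replicate block gave 267 and 105, with 0 of the 9 genes called. In the lists, 1 lower call became 0 with reference transcripts only and 2 with median-of-ratios scaling. Among the named genes of the lists, Cdc37, Cryab and Dnajc9 passed as lower on the protein-coding scale, and Cryab, Dnajc9 and Cct6a with voom. Where 1 propionate library was left, it was assumed to vary like the chloride libraries. The share of Hsp90aa1 and the ratio of Hspd1 to Hspe1 by aligned bases, chosen after seeing the data, differed by -0.98 percentage points and -0.09. The narrowest 95% interval among the 9 genes, that of Hsp90aa1, runs from -0.33 to 0.10, which limits the size of difference that 2 and 3 libraries can show.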
